A study of Homo sapiens with 4 samples.

Results

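Interferon-stimulated genes (ISGs) were described here as a list of 51 genes, matched by symbol, of the 58735 genes in the deposited tables. The rule sets no threshold on their values, but the list was written with earlier results of these data known. After genes with fewer than 10 reads in each of the 4 libraries were set aside, 50 of the 51 remained among 19895 genes tested. EPSTI1 was the member left out, with 1 read after PBS, 2 after normo-Migs, 2 after hypo-Migs and 8 after CD147KO-Migs. CMPK2 passed through the Mig libraries alone, because it had 0 reads with PBS.

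Each condition had 1 library, made from the wild-type line MHCC-97H, which was established from metastatic hepatocellular carcinoma (HCC). In the control, the cells received PBS for 24 h. In the other conditions they received 2 μg of migrasomes (Migs), large vesicles shed by migrating cells, for 24 h. Normo-Migs were collected from MHCC-97H cultures in normoxia and hypo-Migs from hypoxic ones, whereas CD147KO-Migs came from hypoxic cultures of MHCC-97H cells lacking CD147. The oxygen level and glucose of the hypoxic source cultures of these libraries, and the number of knockout clones, were not given in the sources used here. CD147 was deleted in the cells that released the Migs and not in the cells sequenced, so the level of its gene in these libraries does not check that label.

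As background, type I and type III interferons bind receptors on the cell surface and activate the kinases JAK1 and TYK2. These phosphorylate STAT proteins, STAT2 among them, which join IRF9 in the complex ISGF3. ISGF3 binds the interferon-stimulated response element (ISRE) in promoters and turns on genes that sense viral RNA, degrade it, block its translation or hold virions at the membrane. Type II interferon acts mainly through the gamma-activated site (GAS), and many tumour cells keep a part of this programme active without infection.

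The library labelled PBS stood apart from the Mig libraries. It had 251 genes with at most 3 reads that held at least 100 reads in each Mig library, whereas no Mig library had such a gene against the other libraries. Between 33882496 and 40285223 reads were counted on genes, and protein-coding genes took 98.0% of them with PBS and 96.8% to 97.0% with Migs. Of the markers of the labelled liver cancer origin, keratins were abundant and several secretory and oncofetal genes had no reads. KRT8 had 105571 to 167573 reads, whereas ALB, TTR, AFP and GPC3 had 0 in every library. Of 6 mesenchymal markers, 3 had more than 3 reads with PBS and 5 in each Mig library, and their summed level was 21.2 CPM (reads per 1000000 reads on genes after TMM scaling) with PBS and 502 to 540 CPM with Migs. SPARC accounted for most of this sum, with 0 reads with PBS and 13404 to 16845 with Migs. The leukocyte markers summed to 0.637 CPM with PBS and 2.73 to 4.28 CPM with Migs, and PTPRC had at most 2 reads. Each comparison with PBS below therefore rests on this library, and the comparisons among Mig libraries do not use it. The treatment and any other difference of this library, such as its cell stock, cannot be told apart.

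The promoters of well-known ISGs are shown first, because the ISRE is the sequence through which ISGF3 acts on them. Of the 51 members, 42 were matched to a RefSeq promoter on GRCh38.p14. The ISRE core, written GAAANNGAAA and searched on both strands, lay in the 250 bases before the start of 23 of the 42 (54.8%), against 3.02% of 35116 RefSeq promoters. The GAS motif TTCNNNGAA lay in 11 of the 42 (26.2%), against 6.57% of all promoters, and it overlapped an ISRE core in BST2, IFI27 and EPSTI1. The stretches below read 5′ to 3′ on the strand of the gene, with the ISRE core in capitals, and a core on the opposite strand appears as its reverse complement. IFIT1, IFIT3, ISG15, IFITM3 and BST2 are shown as members with higher levels in Mig libraries, IFI6, IFI27 and SAMD9 as members with lower levels, and IFITM1, GBP1 and CXCL10 as examples of members that differed among Mig libraries.
IFIT1 (chr10:89392500-89392549, plus strand): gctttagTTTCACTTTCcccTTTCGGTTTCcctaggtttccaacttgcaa
IFIT3 (chr10:89327855-89327904, plus strand): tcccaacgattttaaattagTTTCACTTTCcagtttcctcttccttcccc
ISG15 (chr1:1013370-1013419, plus strand): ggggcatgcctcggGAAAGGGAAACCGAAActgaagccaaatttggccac
IFITM3 (chr11:320866-320915, minus strand): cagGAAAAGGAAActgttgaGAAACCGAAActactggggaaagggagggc
BST2 (chr19:17405725-17405774, minus strand): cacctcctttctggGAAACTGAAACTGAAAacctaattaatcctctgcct
IFI6 (chr1:27672256-27672307, minus strand): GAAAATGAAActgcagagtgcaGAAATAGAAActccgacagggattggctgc
IFI27 (chr14:94110621-94110670, plus strand): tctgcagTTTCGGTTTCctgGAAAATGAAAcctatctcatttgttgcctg
SAMD9 (chr7:93118086-93118135, minus strand): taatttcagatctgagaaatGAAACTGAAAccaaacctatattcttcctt
IFITM1 (chr11:313980-314029, plus strand): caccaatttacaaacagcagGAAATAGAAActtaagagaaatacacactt
GBP1 (chr1:89065306-89065355, minus strand): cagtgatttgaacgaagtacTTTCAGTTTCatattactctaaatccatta
CXCL10 (chr4:76023689-76023738, minus strand): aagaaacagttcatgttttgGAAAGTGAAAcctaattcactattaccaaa
Cores were thus present both in members that were higher and in members that were lower with Migs. They were absent from the windows of UBE2L6, MX1, CMPK2, RSAD2 and IRF1, which were higher, and of XAF1, which was lower. A match of these letters is a description of the window and not evidence of binding.

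MHCC-97H cells expressed most of the list in every condition, PBS included. To compare genes, the authors' FPKM was used, which divides reads by gene length and library size. The highest member by mean FPKM was BST2, tetherin, which holds budding virions at the cell surface, with 233 FPKM after PBS, 527 after normo-Migs, 523 after hypo-Migs and 559 after CD147KO-Migs. IFI6, a mitochondrial and endoplasmic reticulum protein that protects cells from apoptosis, followed with 551 FPKM after PBS, 296 after normo-Migs, 344 after hypo-Migs and 347 after CD147KO-Migs. IFITM3, which blocks fusion of viruses with endosomes, had 201 FPKM after PBS, 352 after normo-Migs, 348 after hypo-Migs and 382 after CD147KO-Migs. LGALS3BP, a secreted galectin-binding glycoprotein, had 86.6 FPKM after PBS, 155 after normo-Migs, 160.4 after hypo-Migs and 168 after CD147KO-Migs. ISG15, a ubiquitin-like modifier, had 85.8 FPKM after PBS, 141 after normo-Migs, 166 after hypo-Migs and 162 after CD147KO-Migs. IFI6 was highest with PBS, whereas BST2, IFITM3, LGALS3BP and ISG15 were lowest there. At the other end, 9 tested members had a mean below 1 FPKM, among them CXCL11, CMPK2, MX2 and XAF1.

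**Figure D1:**
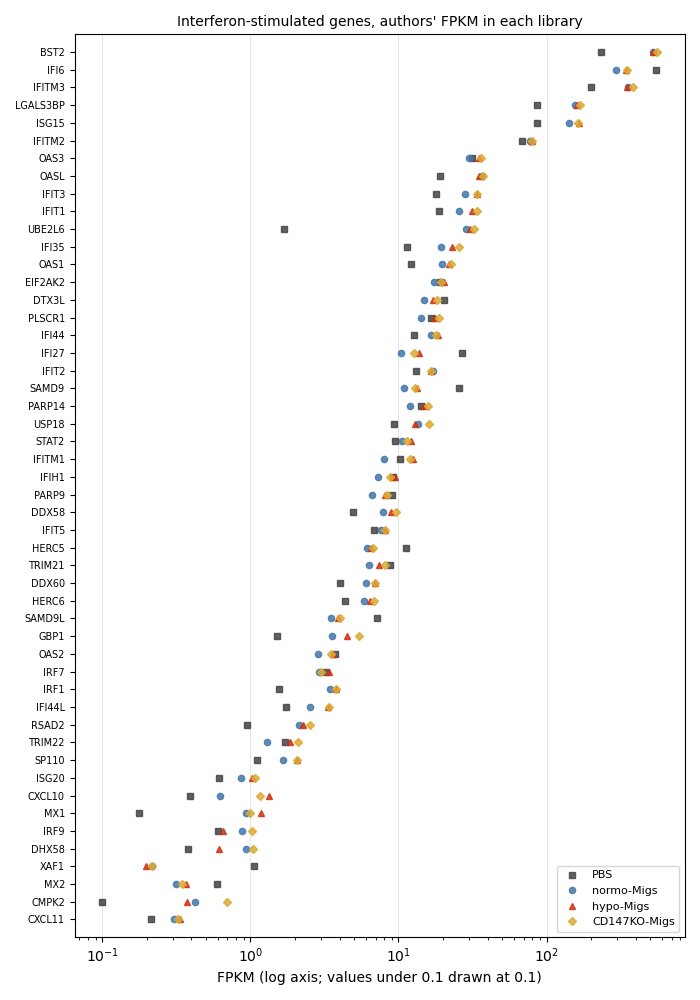
The authors' FPKM (horizontal, log axis) of the 50 tested ISGs (rows, ordered by mean FPKM) in the libraries with PBS, normo-Migs, hypo-Migs and CD147KO-Migs, 1 point per library. BST2, IFI6 and IFITM3 lie at the top, and the PBS point stands left of the Mig points for UBE2L6 and MX1 and right of them for XAF1 and IFI27.

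All members together took 0.359% of reads on genes after PBS (95% Wilson interval 0.357% to 0.361%), 0.411% after normo-Migs (0.409% to 0.414%), 0.455% after hypo-Migs (0.453% to 0.457%) and 0.475% after CD147KO-Migs (0.472% to 0.477%). These intervals do not overlap, but they cover counting error only, and the spread between cultures of a condition is unknown. CD147KO-Migs gave the highest TMM-scaled level of the 4 libraries for 25 members, hypo-Migs for 13, PBS for 11 and normo-Migs for 1. In bulk RNA, a change in the fraction of responding cells and a change of RNA per cell cannot be told apart.

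Against PBS, the list held members that were much higher with Migs and members that were lower. Of the 50 tested members, 8 were at least 2-fold higher with normo-Migs, where 18.1% of all genes tested were, and 4 at least 2-fold lower, where 12% were. With hypo-Migs the counts were 9 higher (18.9% of all genes) and 1 lower (11.6%), and with CD147KO-Migs 10 higher (18.3%) and 2 lower (12%). The members' shares of 16% to 20% higher were near those of all genes, and their shares of 2% to 8% lower were below them. CMPK2, which passed the filter on reads only through the Mig libraries, is in each of the counts of higher members. The median log2 fold change of the members was 0.44 after normo-Migs, 0.51 after hypo-Migs and 0.61 after CD147KO-Migs, beside 0.03, 0.04 and 0.03 over all genes tested.

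A test of these differences needed replicates, and the 3 Mig libraries were taken as 1 group for it, with the PBS library assumed to vary like them. By edgeR's quasi-likelihood test, 8 members rose (adjusted p of 0.05 or less and at least 2-fold), against 13.3% of all genes, and 3 fell, against 6.93%. CMPK2 is among the 8 and passed the filter on reads only through the libraries in which it is high, and 7 members rose without it. By the adjusted p alone, 27 members were higher, 8 lower and 15 did not pass. Of all genes tested, 27.3% were higher and 22.8% lower by the adjusted p. Because the Mig group rests on different treatments and the control on 1 library, these p-values compare libraries. In the text below, rose and fell refer to genes that passed both criteria, and mean higher or lower in the Mig libraries than in the 1 library labelled PBS. A gene called over the group can miss 2-fold in a single library. Against PBS, DHX58 (0.70 on the log2 scale) and IFI27 (-0.95) missed it with hypo-Migs. SAMD9 missed it with hypo-Migs (-0.94) and with CD147KO-Migs (-0.98).

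UBE2L6, the E2 enzyme that hands ISG15 to its targets, rose from 3.74 CPM after PBS to 63.2 CPM after normo-Migs, 67.6 CPM after hypo-Migs and 71.7 CPM after CD147KO-Migs. Its log2 fold change was 4.17 ± 0.14 (SE, adjusted p = 2.75e-14). The Mig libraries lay close together, and all stood far above PBS. The modifier itself was less changed. ISG15 had 80.9 CPM after PBS, 134 after normo-Migs, 157 after hypo-Migs and 154 after CD147KO-Migs, a log2 fold change of 0.88 ± 0.091 (SE, adjusted p = 1.87e-07), which passed the adjusted p and missed 2-fold. HERC5, the ligase that completes ISG15 conjugation in human cells, went the other way with 53.5 CPM after PBS, 29.4 after normo-Migs, 31.2 after hypo-Migs and 32.4 after CD147KO-Migs and a log2 fold change of -0.79 ± 0.093 (SE, adjusted p = 1.09e-06), also under 2-fold. Its neighbour HERC6 was at 0.55 ± 0.11 (SE, adjusted p = 3.69e-04), and USP18, the protease that removes ISG15 and restrains the receptor, at 0.62 ± 0.13 (SE, adjusted p = 5.33e-04), both on the log2 scale. The ISG15 system thus held both a called rise, UBE2L6, and a gene below PBS, HERC5.

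Of the other antiviral effectors, MX1, a dynamin-like GTPase that traps viral nucleocapsids, rose. MX1 had 53 reads after PBS, 278 after normo-Migs, 412 after hypo-Migs and 301 after CD147KO-Migs, and its log2 fold change was 2.55 ± 0.25 (SE, adjusted p = 7.85e-08). MX2, which lies beside MX1 on chromosome 21 and blocks nuclear import of retroviral capsids, had 268 reads with PBS and 141, 193 and 158 with the Migs in the same order. The MX2 log2 fold change was -0.79 ± 0.20 (SE, adjusted p = 0.0028), so the neighbours stood on opposite sides of PBS. RSAD2, viperin, which makes a chain-terminating nucleotide, rose with 4.58 CPM after PBS, 10.3 after normo-Migs, 11.1 after hypo-Migs and 12.2 after CD147KO-Migs and a log2 fold change of 1.29 ± 0.19 (SE, adjusted p = 1.19e-05). CMPK2, a mitochondrial nucleotide kinase whose gene is a neighbour of RSAD2, had 0 reads with PBS and 62, 65 and 106 with the Migs. With the PBS library set at a floor of 3 reads, CMPK2 was 20.9-fold higher with normo-Migs, 18.6-fold with hypo-Migs and 34.8-fold with CD147KO-Migs. These folds leave out counting error in the Mig reads. On the log2 scale, the lower limits of the exact 95% intervals against PBS were 4.05, 3.88 and 4.80 in the same order. The exons of CMPK2 and RSAD2 overlap on opposite strands, so some of their reads may belong to the other gene. EIF2AK2, the RNA-activated kinase PKR that stops translation, had 204 CPM after PBS, 188 after normo-Migs, 219 after hypo-Migs and 211 after CD147KO-Migs and did not pass the test (0.01 ± 0.079 (SE, adjusted p = 0.926) on the log2 scale), with the sign of the log2 value changing when libraries were scaled by total reads or by DESeq2 size factors.

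Among membrane restriction factors, BST2 rose with 261 CPM after PBS, 595 after normo-Migs, 590.4 after hypo-Migs and 632 after CD147KO-Migs and a log2 fold change of 1.22 ± 0.067 (SE, adjusted p = 3.42e-11). IFITM3 had 272 CPM after PBS, 479 after normo-Migs, 474 after hypo-Migs and 519 after CD147KO-Migs and a log2 fold change of 0.85 ± 0.070 (SE, adjusted p = 7.93e-09), past the adjusted p and short of 2-fold. IFITM2 was nearly level at 0.21 ± 0.073 (SE, adjusted p = 0.02), and IFITM1, which acts at the plasma membrane, did not pass the test at 0.08 ± 0.20 (SE, adjusted p = 0.763). IFITM1 had 385 reads after PBS, 297 after normo-Migs, 547 after hypo-Migs and 456 after CD147KO-Migs, so PBS lay between normo-Migs and the other Mig libraries. The IFITM genes are close paralogs, and the exons of IFITM1 and IFITM2 overlap on 1 strand, which makes the division of reads between them uncertain. PLSCR1, a phospholipid scramblase with antiviral action, did not pass (0.03 ± 0.12 (SE, adjusted p = 0.841)), and its sign changed when scaled by total reads.

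The IFIT genes were all higher in the Mig libraries than with PBS, and none reached 2-fold. Of their proteins, IFIT1 binds viral RNA lacking host-type cap methylation. IFIT1 had 86.8 CPM after PBS, 119 after normo-Migs, 146 after hypo-Migs and 157 after CD147KO-Migs, and its log2 fold change was 0.70 ± 0.11 (SE, adjusted p = 4.52e-05). IFIT3 had 47.1 CPM after PBS, 75.3 after normo-Migs, 90.2 after hypo-Migs and 89.7 after CD147KO-Migs, with a log2 fold change of 0.85 ± 0.10 (SE, adjusted p = 1.36e-06). IFIT2 was at 0.37 ± 0.083 (SE, adjusted p = 0.0011) on the log2 scale and IFIT5 did not pass at 0.23 ± 0.10 (SE, adjusted p = 0.078). The 4 genes lie together on chromosome 10, and IFIT2 exons overlap those of LIPA on the opposite strand.

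The OAS enzymes make 2′-5′ oligoadenylates that activate RNase L, and they did not move together. OAS1 had 60.2 CPM after PBS, 98.5 after normo-Migs, 109 after hypo-Migs and 113 after CD147KO-Migs and a log2 fold change of 0.83 ± 0.090 (SE, adjusted p = 3.43e-07). OASL, a catalytically inactive relative that enhances RNA sensing, had 67.0 CPM after PBS, 130.0 after normo-Migs, 124 after hypo-Migs and 133 after CD147KO-Migs and a log2 fold change of 0.94 ± 0.080 (SE, adjusted p = 1.34e-08). OAS2 (-0.16 ± 0.13 (SE, adjusted p = 0.337)) and OAS3 (0.11 ± 0.083 (SE, adjusted p = 0.274)), which share a cluster on chromosome 12 with OAS1, did not pass the test. None of the 4 was called at 2-fold.

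Among the sensors of viral RNA, DHX58 (LGP2), a regulator of the other helicases, rose with 50 reads after PBS, 123 after normo-Migs, 96 after hypo-Migs and 141 after CD147KO-Migs. The DHX58 log2 fold change was 1.20 ± 0.35 (SE, adjusted p = 0.0074). DDX58 (RIG-I), which detects RNA with a 5′ triphosphate, had 21.5 CPM after PBS, 34.8 after normo-Migs, 39.0 after hypo-Migs and 42.4 after CD147KO-Migs and 0.85 ± 0.12 (SE, adjusted p = 8.17e-06) on the log2 scale. IFIH1 (MDA5), which detects long double-stranded RNA, had 47.1 CPM after PBS, 37.5 after normo-Migs, 48.5 after hypo-Migs and 44.9 after CD147KO-Migs and did not pass, at -0.11 ± 0.11 (SE, adjusted p = 0.459). DDX60, a helicase that promotes RIG-I signalling, was at 0.72 ± 0.11 (SE, adjusted p = 1.43e-05).

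Of the transcription factors, IRF1 rose with 12.2 CPM after PBS, 26.9 after normo-Migs, 29.6 after hypo-Migs and 30.0 after CD147KO-Migs and a log2 fold change of 1.24 ± 0.13 (SE, adjusted p = 1.66e-07). STAT2, a subunit of ISGF3, had a log2 fold change of 0.27 ± 0.091 (SE, adjusted p = 0.018). IRF9, the DNA-binding subunit of ISGF3, had 79 reads with PBS and 115, 100 and 138 with normo-Migs, hypo-Migs and CD147KO-Migs, and did not pass (0.51 ± 0.31 (SE, adjusted p = 0.184)). IRF7, which amplifies interferon production, did not pass either (-0.05 ± 0.17 (SE, adjusted p = 0.836)). Exons of IRF1 overlap those of C5orf56 on the opposite strand, and C5orf56 had 57 to 186 reads.

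GBP1, an interferon-induced GTPase that coats intracellular pathogens, rose with 7.53 CPM after PBS, 17.8 after normo-Migs, 22.7 after hypo-Migs and 27.4 after CD147KO-Migs and a log2 fold change of 1.59 ± 0.20 (SE, adjusted p = 2.11e-06). SAMD9, an antiviral protein that restricts poxviruses and growth, fell with 177 CPM after PBS, 74.8 after normo-Migs, 92.1 after hypo-Migs and 89.5 after CD147KO-Migs and a log2 fold change of -1.05 ± 0.090 (SE, adjusted p = 1.53e-08). Its neighbour SAMD9L on chromosome 7 was lower by less than 2-fold at -0.90 ± 0.10 (SE, adjusted p = 4.73e-07).

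The genes named IFI and the rest included the largest falls. XAF1, which counters the apoptosis inhibitor XIAP, fell from 240 reads after PBS to 49 after normo-Migs, 53 after hypo-Migs and 51 after CD147KO-Migs. Its log2 fold change was -2.31 ± 0.25 (SE, adjusted p = 4.20e-07), and the Mig libraries were nearly equal. IFI27, a small mitochondrial protein, fell with 111 CPM after PBS, 43.8 after normo-Migs, 57.6 after hypo-Migs and 52.9 after CD147KO-Migs and a log2 fold change of -1.11 ± 0.10 (SE, adjusted p = 4.97e-08). IFI6 had 478 CPM after PBS, 258 after normo-Migs, 300.4 after hypo-Migs and 303 after CD147KO-Migs and a log2 fold change of -0.73 ± 0.076 (SE, adjusted p = 1.92e-07), short of 2-fold. IFI35 (1.00 ± 0.13 (SE, adjusted p = 3.55e-06)), LGALS3BP (0.90 ± 0.066 (SE, adjusted p = 1.85e-09)), IFI44L (0.83 ± 0.15 (SE, adjusted p = 1.10e-04)) and IFI44 (0.47 ± 0.11 (SE, adjusted p = 0.001)) were higher by less than 2-fold over the Mig group. IFI35 alone of these passed 2-fold in single libraries, at 1.02 on the log2 scale with hypo-Migs and 1.17 with CD147KO-Migs, and it passed both criteria with no filter on reads (1.0044) and with 10 reads in every library (1.0082).

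The remaining roles were mixed. PARP9 and PARP14, ADP-ribosyltransferases of the antiviral response, did not pass (-0.21 ± 0.10 (SE, adjusted p = 0.097) and 0.02 ± 0.11 (SE, adjusted p = 0.902), the latter changing sign when scaled by total reads), and DTX3L, the ubiquitin ligase paired with PARP9, was lower at -0.25 ± 0.092 (SE, adjusted p = 0.027). PARP9 and DTX3L share exonic bases on opposite strands. TRIM21, a cytosolic antibody receptor, had a log2 value of -0.26 ± 0.15 (SE, adjusted p = 0.161) and TRIM22, an antiviral ubiquitin ligase, one of 0.05 ± 0.21 (SE, adjusted p = 0.871). SP110, a nuclear body protein, was higher at 0.81 ± 0.17 (SE, adjusted p = 6.60e-04), and ISG20, an exonuclease, at 0.69 ± 0.21 (SE, adjusted p = 0.0092). CXCL10, a chemokine that recruits T cells, had 16 reads after PBS, 25 after normo-Migs, 64 after hypo-Migs and 48 after CD147KO-Migs and narrowly missed the threshold (1.41 ± 0.58 (SE, adjusted p = 0.051)). CXCL11 had 14, 20, 26 and 22 reads in the same order and did not pass (0.61 ± 0.69 (SE, adjusted p = 0.493)).

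**Figure D2:**
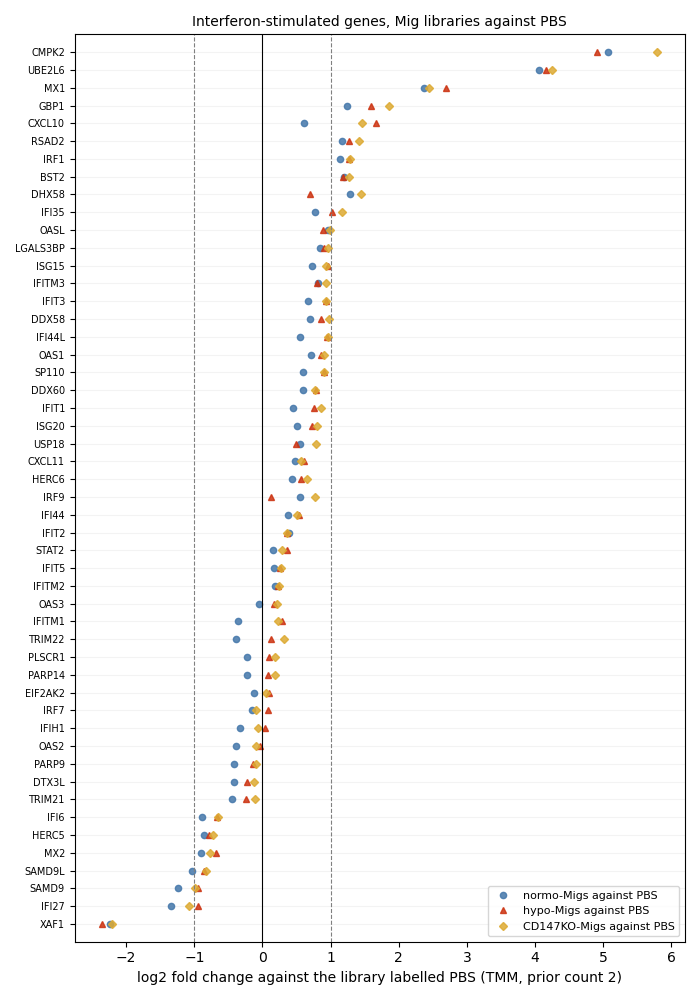
Log2 fold change (horizontal, TMM scaling, prior count 2) of each of the 50 tested ISGs (rows) in normo-Migs, hypo-Migs and CD147KO-Migs against the library labelled PBS, with dashed lines at 2-fold. CMPK2, UBE2L6 and MX1 stand furthest to the right and XAF1 furthest to the left, and the circles of normo-Migs lie left of the other symbols for most genes.

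Members that are neighbours in the genome went together in some clusters and apart in others. With gaps of at most 250 kb, 25 members fell into 10 clusters. MX1 rose and MX2 was lower, OAS1 was higher while OAS2 and OAS3 did not pass, and HERC6 was higher while HERC5 was lower. SAMD9 and SAMD9L were both lower, and the 4 IFIT genes were all above PBS. Also above PBS over the Mig group, by the sign of the log2 value, were CMPK2 with RSAD2, IFI44 with IFI44L, CXCL10 with CXCL11, and the clustered IFITM genes. By sign alone, OAS3 (0.11) was likewise on the side of OAS1. Of the genes named as above PBS, IFIT5, CXCL10, CXCL11 and IFITM1 did not pass the test. IFITM1 was below PBS with normo-Migs, at -0.35 (-0.58 to -0.13). In the remaining cluster, PARP9 (-0.21) and DTX3L (-0.25) were below PBS and PARP14 (0.02) was level on the log2 scale. In total, the exons of 17 of the 51 members overlap those of another gene, 13 of them on the opposite strand, and the handling of strands was not given in the sources used here.

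Among the Mig libraries, which leave out PBS, most members had lower levels with normo-Migs than with hypo-Migs or CD147KO-Migs, by small amounts, with exceptions named below. The comparison of hypo-Migs with normo-Migs asks about the oxygen supply of the source cells, and that of hypo-Migs with CD147KO-Migs about CD147 in source cells that were both hypoxic. Normo-Migs and CD147KO-Migs differ in both respects. With 1 library each, no test of these pairs was possible, and each ratio is given with an exact 95% interval that covers counting error only.

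With hypo-Migs, 41 of 50 members were higher than with normo-Migs, where 49.7% of all genes tested were. The median log2 fold change was 0.21, against 0 for all genes. By the interval of the ratio, a rule chosen after seeing the data, 33 members lay above equality, where 16.6% of all genes did, and 3 below, where 18.2% did. Among genes averaging at least 50 reads, 32 of 48 members lay above, against 18.3% of all such genes. Only CXCL10 was 2-fold higher (5.19% of all genes were), and no member was 2-fold lower (4.15%).

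Between normo-Migs and CD147KO-Migs, 49 of 50 members were lower with normo-Migs, where 48.9% of all genes were. The exception was IFIT2, at 0.04 on the log2 scale. The median was -0.23, against 0.00 for all genes. The interval lay below equality for 39 members (16.6% of all genes) and above it for 0 (17.9%). Among genes averaging at least 50 reads it lay below for 38 of 48 members, against 18.4% of all such genes. No member differed 2-fold in either direction, where 4.73% of all genes were higher and 4.96% lower.

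Between hypo-Migs and CD147KO-Migs the members were closer. With hypo-Migs 32 of 50 were lower, where 49.3% of all genes were, and the median was -0.05, against 0.00. Intervals lay above equality for 5 members (17.3% of all genes) and below it for 17 (17.6%). No member was 2-fold higher (4.78%) or lower (4.34%). The 3 pairs share libraries and are not independent of each other, and the low level with normo-Migs enters 2 of them.

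**Figure D3:**
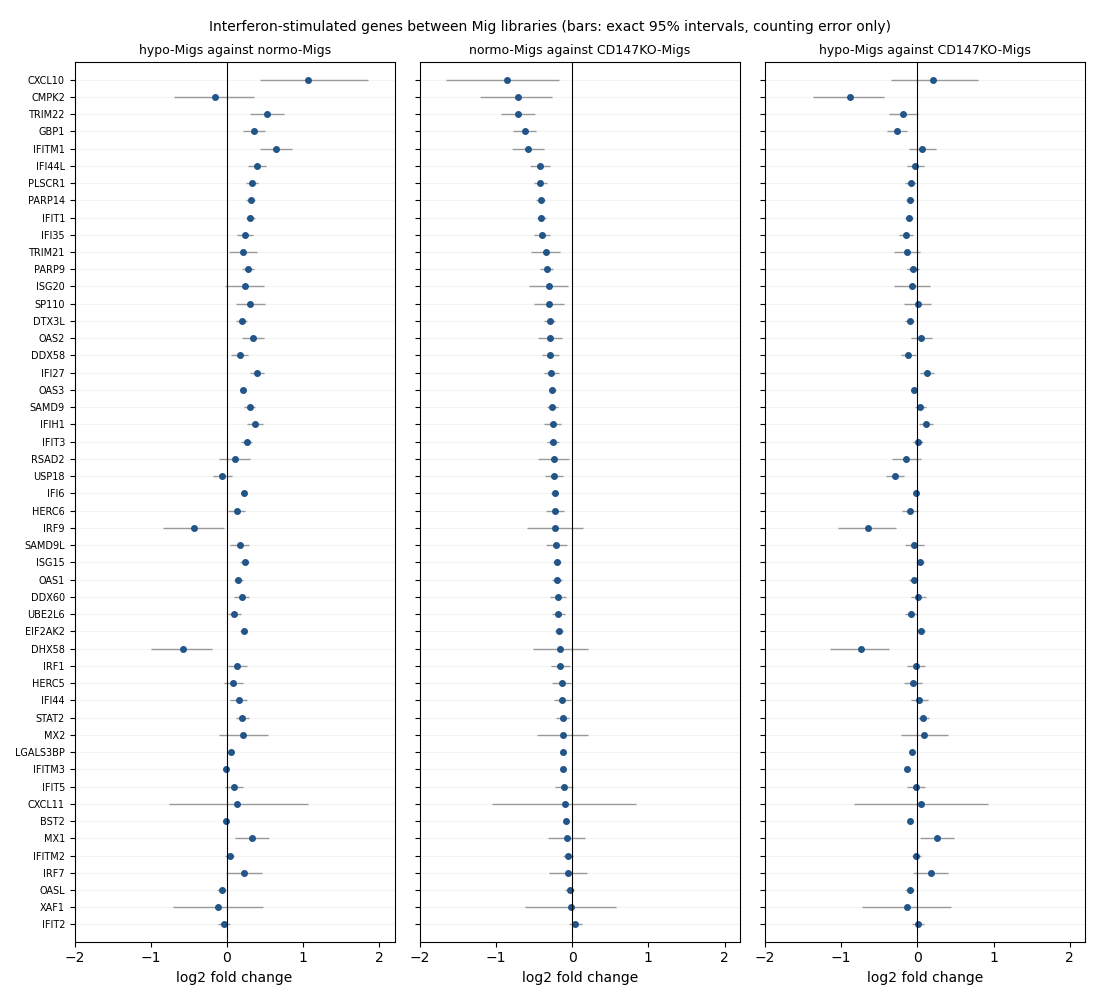
Log2 fold change (horizontal) of the 50 tested ISGs (rows) between Mig libraries, as points with exact 95% intervals of the ratio of reads (bars, counting error only), in 3 panels for the 3 pairs. In the middle panel, normo-Migs against CD147KO-Migs, 49 of 50 points lie left of 0, and in the left panel, hypo-Migs against normo-Migs, 41 lie right of it.

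The members differed in how far they moved. CXCL10 was lowest with normo-Migs, 0.734 CPM, against 1.59 CPM with hypo-Migs and 1.37 CPM with CD147KO-Migs. Its log2 fold change was 1.06 (0.43 to 1.85) for hypo-Migs against normo-Migs and -0.85 (-1.66 to -0.18) for normo-Migs against CD147KO-Migs, from 25 to 64 reads. IFITM1 followed at 0.64 (0.44 to 0.85) and -0.58 (-0.79 to -0.36) for the same pairs. TRIM22 was at 0.53 (0.31 to 0.75) and -0.71 (-0.94 to -0.49). GBP1 rested on more reads, 606 after normo-Migs, 913 after hypo-Migs and 961 after CD147KO-Migs, and was at 0.35 (0.21 to 0.51) and -0.62 (-0.77 to -0.48). IFIT1 had intervals of 0.30 (0.25 to 0.36) and -0.41 (-0.47 to -0.35). For each of these genes the normo-Migs library was the lowest of the Mig libraries.

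Other members named here, MX1 apart, did not share that order. CMPK2 was highest with CD147KO-Migs, at -0.72 (-1.21 to -0.27) for normo-Migs against CD147KO-Migs and -0.88 (-1.37 to -0.44) for hypo-Migs against CD147KO-Migs, whereas hypo-Migs and normo-Migs differed by -0.16 (-0.69 to 0.36). DHX58 and IRF9 were lowest of the Mig libraries with hypo-Migs. DHX58 was at -0.58 (-0.99 to -0.20) for hypo-Migs against normo-Migs and -0.74 (-1.14 to -0.37) against CD147KO-Migs. IRF9 was at -0.43 (-0.84 to -0.04) and -0.65 (-1.05 to -0.28). MX1 was lowest with normo-Migs, at 8.16 CPM, against 8.59 CPM with CD147KO-Migs. Its highest level was with hypo-Migs, at 0.33 (0.11 to 0.56) against normo-Migs and 0.25 (0.04 to 0.48) against CD147KO-Migs. The abundant BST2 and IFITM3 hardly differed between hypo-Migs and normo-Migs, at -0.01 (-0.04 to 0.02) and -0.02 (-0.05 to 0.01).

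Members with and without an ISRE core had similar counts in each direction, and the difference between them was not tested. Of the 22 tested members with a core, 22 were lower with normo-Migs than with CD147KO-Migs, with a median of -0.26 on the log2 scale. Of the 19 tested members matched without a core, 19 were lower, with a median of -0.22. For hypo-Migs against normo-Migs, 20 were higher and 2 lower with a core, and 16 higher and 3 lower without one, with medians of 0.25 and 0.16.

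In the Mig libraries the summed CPM of all 5 marker lists, that of the labelled liver cancer origin included, was lowest with normo-Migs. The liver cancer list, mainly KRT8 and KRT18, summed to 5584 CPM with normo-Migs, 6191 CPM with hypo-Migs and 6615 CPM with CD147KO-Migs. The mesenchymal list summed to 502, 526 and 540 CPM, mainly from SPARC, whereas COL1A1 was at 104, 100.1 and 99.1 CPM. The leukocyte list summed to 2.73, 3.74 and 4.28 CPM in that order, with CD3E at 0 reads in every library. The hepatocyte list summed to 4.34, 6.40 and 4.43 CPM and the endothelial list to 4.34, 5.43 and 5.54 CPM. Their part in the shift of the members was not tested.

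**Figure D4:**
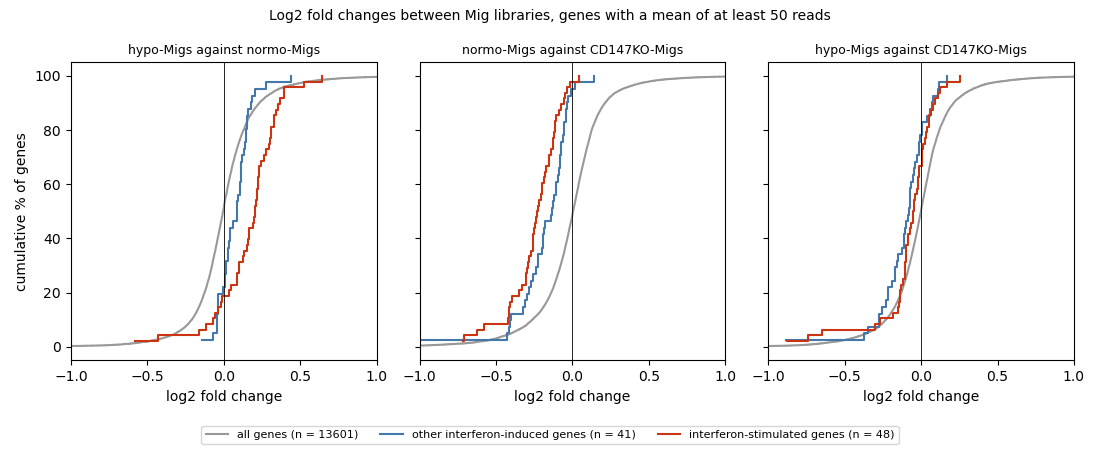
Cumulative share of genes (vertical, %) against log2 fold change (horizontal) in 3 pairs of Mig libraries, for 13601 genes averaging at least 50 reads (grey), 41 other interferon-induced genes (blue) and 48 ISGs (red). The red line lies right of the grey for hypo-Migs against normo-Migs, left of it for normo-Migs against CD147KO-Migs, and nearer to it, left of it in the upper part, for hypo-Migs against CD147KO-Migs.

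Genes up and down the interferon pathway were examined from lists written with the members. Of 21 interferon ligands, 2 were tested. IFNE, an epithelial type I interferon, had 15 reads after PBS, 117 after normo-Migs, 180 after hypo-Migs and 132 after CD147KO-Migs and rose with a log2 fold change of 3.16 ± 0.38 (SE, adjusted p = 1.29e-06). IFNA1 had 0, 8, 3 and 12 reads in the same order and did not pass. IFNB1 had 1 read after PBS, 8 after normo-Migs and 0 after the other Migs. The other ligands had at most 6 reads in any library. The limit that 0 reads allow, 3 reads, was 0.0745 to 0.0885 CPM before TMM scaling.

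Of the 6 receptor subunits, IFNGR1, of the type II receptor, rose with 1.04 ± 0.088 (SE, adjusted p = 1.31e-08), and no subunit fell. IFNAR1, of the type I receptor, was lower at -0.47 ± 0.084 (SE, adjusted p = 1.34e-04), IFNGR2 at -0.79 ± 0.12 (SE, adjusted p = 1.66e-05) and IFNLR1, of the type III receptor, at -0.93 ± 0.24 (SE, adjusted p = 0.0034), each short of 2-fold over the Mig group. IFNLR1 had 370 reads after PBS, 251 after normo-Migs, 154 after hypo-Migs and 201 after CD147KO-Migs, so hypo-Migs alone was more than 2-fold below PBS, at -1.47 (-1.76 to -1.21) on the log2 scale. IFNAR2 had 23 to 39 reads and IL10RB 6 to 10. Of the receptor-bound kinases, JAK2 rose at 1.32 ± 0.15 (SE, adjusted p = 9.23e-07), and JAK1, at 0.59 ± 0.081 (SE, adjusted p = 6.42e-06), and TYK2, at 0.38 ± 0.085 (SE, adjusted p = 0.0011), were higher by less than 2-fold.

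Of 16 genes of nucleic acid sensing, 13 were tested, 1 rose and 1 fell, beside 13.3% and 6.93% of all genes. By the adjusted p alone, more of them were below PBS than above it. That rule gave 7 lower and 2 higher, beside 22.8% and 27.3% of all genes. The list's median log2 fold change over the Mig group was -0.33. TLR3, the endosomal receptor of double-stranded RNA, rose from 35 reads with PBS to 328, 389 and 377 with the Migs, at 3.30 ± 0.25 (SE, adjusted p = 2.55e-09). IRF3, which drives interferon transcription, fell with a log2 fold change of -1.16 ± 0.074 (SE, adjusted p = 3.09e-10). TMEM173 (STING), the adaptor of DNA sensing, was lower at -0.98 ± 0.10 (SE, adjusted p = 3.04e-07), short of 2-fold. TRIM25, MAVS, TICAM1, TRAF3 and TBK1 were also lower by the adjusted p, at -0.46 to -0.33 on the log2 scale. Besides TLR3, IRF5 was higher by that rule, at 0.73. Of 8 negative regulators, SOCS3 rose at 3.09 ± 0.13 (SE, adjusted p = 8.00e-13) and PTPN6, a phosphatase of JAK signalling, fell at -1.59 ± 0.12 (SE, adjusted p = 2.72e-09).

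Of 48 other interferon-induced genes, 45 were tested. By both criteria 9 rose, where 13.3% of all genes did, and 0 fell, where 6.93% did. By the adjusted p alone 20 were higher and 5 lower, where 27.3% and 22.8% of all genes were. TNFSF10 (TRAIL), an inducer of apoptosis, rose from 7 reads with PBS to 979, 1275 and 1155 with the Migs. Its log2 fold change over the Mig group was 7.24. For normo-Migs against PBS it was 6.80, with an exact 95% interval of 6.10 to 8.46. CD274 (PD-L1), an immune checkpoint ligand that also rose, had 0 reads with PBS and 77, 98 and 95 with the Migs. Both TNFSF10 and CD274 are included in the count of genes of this list that rose. They had fewer than 10 reads with PBS and passed the filter on reads only through the Mig libraries, in which they are high. TYMP, thymidine phosphorylase, rose at 2.96 ± 0.15 (SE, adjusted p = 1.59e-11). With hypo-Migs against normo-Migs 35 were higher, where 49.7% of all genes were, and 10 lower, with a median of 0.09 on the log2 scale. With normo-Migs against CD147KO-Migs 4 were higher and 41 lower, where 48.9% of all genes were lower, with a median of -0.13. Both medians were smaller than those of the members, 0.21 and -0.23.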

How the data were processed

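RNA was sequenced from 4 libraries of MHCC-97H cells, 1 per condition. The authors deposited raw counts of reads per gene, without normalization, and FPKM, in which the authors had divided reads by gene length and library size. The submitters' processing notes name CASAVA 1.8, fastp, HISAT2 2.0.5, featureCounts 1.5.0-p3 and hg38, and identifiers and coordinates match GENCODE release 29 (Ensembl 94). The handling of strands was not given in the sources used here. Genes were matched by Ensembl identifier, since 15 symbols read as dates among the counts.

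The tools were edgeR 4.0.16 and DESeq2 1.42.0 in R 4.3.3, together with Python 3.11.15. Genes reaching 10 reads in any library were kept, and libraries were scaled by TMM (factors 0.986 to 1.02). The log2 fold changes of pairs of libraries had a prior count of 2. Those given with a standard error came from the quasi-likelihood test, which did not use that prior count. With 1 library per condition, pairs were given by fold change and an exact 95% interval of the ratio of reads, and called at 2-fold. The only test was edgeR's quasi-likelihood test of the 3 Mig libraries as 1 group against PBS, adjusted by Benjamini and Hochberg over all 19895 genes. The standard error was the log2 fold change divided by the square root of the F statistic. It can be smaller than counting error for a gene with few reads, as for TNFSF10, whose value is therefore not given. Scripts were tested on simulated data. Shares of reads had 95% Wilson intervals, and all intervals cover counting error only.

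The members and lists were chosen with earlier results of these data known. Values were given in full for members called in the Mig group, the 5 members of highest mean FPKM, members 2-fold apart between Mig libraries with a mean of at least 50 reads, and 1 to 3 members of each role. Values for other members were added after they were seen. Outside the list, values were given for receptors and up to 3 of the largest changes per pathway list, with others chosen after their values were seen. One gene that the rule names is not reported here. Promoter sequences came from RefSeq (GRCh38.p14). The alternatives concerned scaling, filters on reads, the prior count, FPKM, the fold threshold, DESeq2 and the call rule, and the interval rule was chosen after seeing the data.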

Additional observations from a re-analysis of the deposited data

How the results depend on the processing

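Scaling by total reads or DESeq2 size factors, a filter of 10 reads in every library, a prior count of 0.25, an exact binomial test added to the 2-fold rule, and DESeq2's Wald test moved no count of members by over 1.5 times. On log2(FPKM + 1), which understates changes of low genes, 2 members were at least 2-fold higher and 2 lower for normo-Migs against PBS, 3 and 0 for hypo-Migs, and 4 and 1 for CD147KO-Migs, and 0 were higher with hypo-Migs than with normo-Migs. At 1.5-fold the counts against PBS were 19 higher and 7 lower for normo-Migs, 23 and 7 for hypo-Migs, and 25 and 7 for CD147KO-Migs, where 26.8% to 27.6% of all genes tested were higher and 21.1% to 21.6% lower. At 1.5-fold 2 were higher for hypo-Migs against normo-Migs (10.1% of all genes), 3 lower for hypo-Migs against CD147KO-Migs (8.77%) and 4 lower for normo-Migs against CD147KO-Migs (9.59%). With a mean of at least 50 reads, 0 were 2-fold higher with hypo-Migs than with normo-Migs, since CXCL10 was filtered out. With no filter, EPSTI1 entered and 1 member was 2-fold lower with hypo-Migs, and 1 with normo-Migs, than with CD147KO-Migs. By the adjusted p alone, 27 members were higher and 8 lower in the Mig group, where 27.3% and 22.8% of all genes were. By the exact 95% interval, chosen after seeing the data, 29 members were above and 18 below PBS for normo-Migs, 34 and 10 for hypo-Migs, and 35 and 9 for CD147KO-Migs, where 37.2% to 38.1% of all genes were above and 33.5% to 34.0% below. By the same rule 33 were above and 3 below for hypo-Migs against normo-Migs, 5 and 17 for hypo-Migs against CD147KO-Migs, and 39 below for normo-Migs against CD147KO-Migs. The log2 value against PBS changed sign for EIF2AK2 (-0.024 by total reads and -0.0047 by DESeq2 size factors), PARP14 (-0.016 by total reads) and PLSCR1 (-0.0024 by total reads), none of which passed the test. No paired analysis was possible because each condition had 1 library, and for the same reason no library could be left out of a condition. No cause of these changes was tested beyond the filters' own construction.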
